A study of Homo sapiens with 16 samples.

Results

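Be(2)-C neuroblastoma cells were given DAC, EPZ-6438, both drugs or neither, and the question was whether the change under both drugs equalled the sum of the changes under each drug alone. The interaction is the log2 change from DMSO to both drugs minus the log2 changes from DMSO to DAC and from DMSO to EPZ-6438, so a negative value lies below the sum and a positive value above it. It compared 8 of the 16 libraries of the study, while the estimate of the spread and the filter on low counts used all 16. It covered 15967 of the 23459 genes in the table, those that passed the filter. Of these, 39 lay below the sum and 2 above it at an adjusted p under 0.05.

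Be(2)-C and IMR5-75, the line used for comparison, are human neuroblastoma lines with an amplified MYCN gene, each a subline of 1 clone. The Be(2)-C groups were the solvent DMSO, DAC at 1 µM for 72 h, EPZ-6438 at 1 µM for 96 h (EPZ below), and both drugs at those doses and times, with 2 libraries each. All groups were grown in RPMI medium with 10% fetal calf serum, and IMR5-75 received the same treatments. Libraries are named by treatment and replicate number (DAC 1, DAC 2), and the labels name no separate cultures for the replicates. The p-values therefore rest on the spread between replicate libraries alone, estimated over the 16 libraries of both lines, and that spread may be technical.

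DAC is the labels' abbreviation and in most use is decitabine, a cytidine analogue that is built into DNA and traps DNA methyltransferases. The target of EPZ-6438 is EZH2, which places the repressive H3K27 methyl mark as part of Polycomb repressive complex PRC2. The gene classes below turn on the integrated stress response: a lack of amino acids, unfolded protein in the endoplasmic reticulum or other stress leads to phosphorylation of a translation initiation factor, and the transcription factor ATF4 is then made from mRNA already present. ATF4, often with its partner CHOP (gene DDIT3), switches on genes for amino acid import and synthesis, tRNA charging, glutathione supply and secreted stress factors, while the oxidant-responsive factor NRF2 (gene NFE2L2) drives a partly shared set that includes SLC7A11.

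The 8 Be(2)-C libraries held 9539557 to 12143657 counts, their TMM scaling factors ran from 0.9276 to 1.002, and the 10 most abundant genes took 7.06 to 8.64% of counts. Markers of the cell type were present: the summed level of the 24 noradrenergic identity genes was 4529 to 5670 CPM (counts scaled to the library total) in every Be(2)-C library, and MYCN stood at 3210 to 5280 CPM. The 11 haematopoietic markers together reached 3.98 to 7.50 CPM and the 7 endothelial markers 0.740 to 3.98 CPM. The 11 epithelial markers, of which 5 passed the filter, summed to 6.61 to 11.3 CPM in the 4 libraries without DAC and to between 22.9 and 33.4 CPM in the 4 with it, and their part in the results was not tested. In such bulk samples fewer cells of a kind and less RNA per cell cannot be told apart. DNMT1, the main target of decitabine, lay at 251 and 258 CPM after DMSO and 167 and 187 CPM after both drugs, with an interaction of 0.09 ± 0.18 (SE), and EZH2 at 99.0 and 97.4 CPM against 59.5 and 60.2 CPM, with an interaction of 0.19 ± 0.15. Neither interaction passed the test (edgeR quasi-likelihood test, adjusted p = 0.934 and 0.811), and mRNA levels do not report the activity of either enzyme.

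Most genes below the sum had a higher level after each drug alone and a level near or under DMSO when both were given. The 39 genes below the sum were 0.244% of all genes tested and the 2 above it 0.0125%, and at an unadjusted p under 0.05 there were 654 genes below (4.1%) and 549 above (3.44%). The median interaction of the 39 was -2.14, with a range from -5.69 for GDF15 to -0.84 for SEL1L, while the median over all genes tested was 0.00347. All 39 had a positive log2 change after DAC and after EPZ, and 22 were called higher after DAC (3.73% of all genes), 28 after EPZ (5.35%) and 19 after each of them. Under both drugs 11 were called lower than in DMSO (10.4% of all genes), 5 higher (13.2%) and 23 neither, 29 were called lower than under DAC alone (2.02%) and 32 lower than under EPZ alone (1.37%). These counts use the libraries that enter the interaction, so they describe its form and are not further evidence for it.

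**Figure D1:**
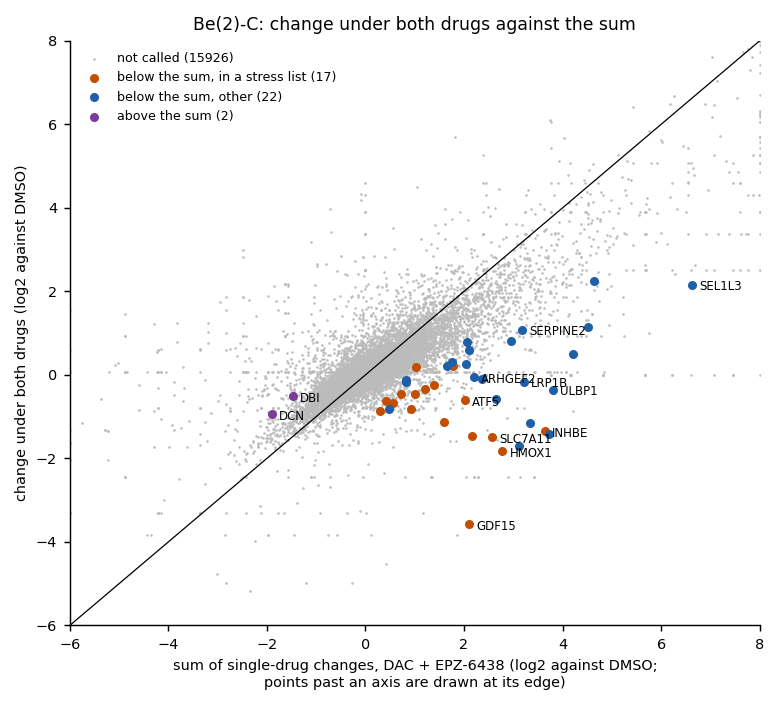
Each point is 1 of the 15967 genes tested in Be(2)-C, with the sum of the DAC and EPZ changes on the x axis and the change under both drugs on the y axis, both as log2 against DMSO; the line marks equality. The 39 called genes below the line lie at positive sums and mostly near or under 0 on the y axis, and the 2 called genes above it, DBI and DCN, lie at negative sums.

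The shape was the same without logarithms: in all 39 the mean CPM under both drugs was under the DAC mean plus the EPZ mean minus the DMSO mean. In 35 of the 39 genes both libraries with both drugs lay under all 4 single-drug libraries, which held for 9.28% of all genes. The exceptions were ACRC, PTPRH, SEL1L3 and SLITRK6. Both libraries lay under both DMSO libraries in 22 of the 39 (29.1% of all genes) and over both in 10 (35.4%). As the 39 were selected by the interaction in these same libraries, these counts too describe its form and are not further evidence for it. No named gene of the 41 changed sign in any of the 13 alternative fits.

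Replicates differed in the same genes. DAC 2 was higher than DAC 1 in 36 of the 39 and DMSO 2 higher than DMSO 1 in 35, where DAC 2 was higher in 49.7% and DMSO 2 in 53.4% of all genes tested. EPZ 2 was higher than EPZ 1 in 8 of the 39 (52.5% of all genes), and DAC+EPZ 2 higher than DAC+EPZ 1 in 21 (50.4%). The count of 39 was 16 with DMSO 1 left out, 18 with DAC 2 left out, 24 with either DAC+EPZ library left out, and 28 to 50 without any of the other 4. The part that this spread plays in the calls was not otherwise tested. In 16 of the 39 the call was kept in all 8 fits that left out 1 library each: SLC7A11, INHBE, HMOX1, ATF5, ARHGEF2, GDF15, SERPINE2, SEL1L3, ULBP1, LRP1B, AKNA, FAM129A, GRB10, PTPRH, ADM2 and ACRC.

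**Figure D2:**
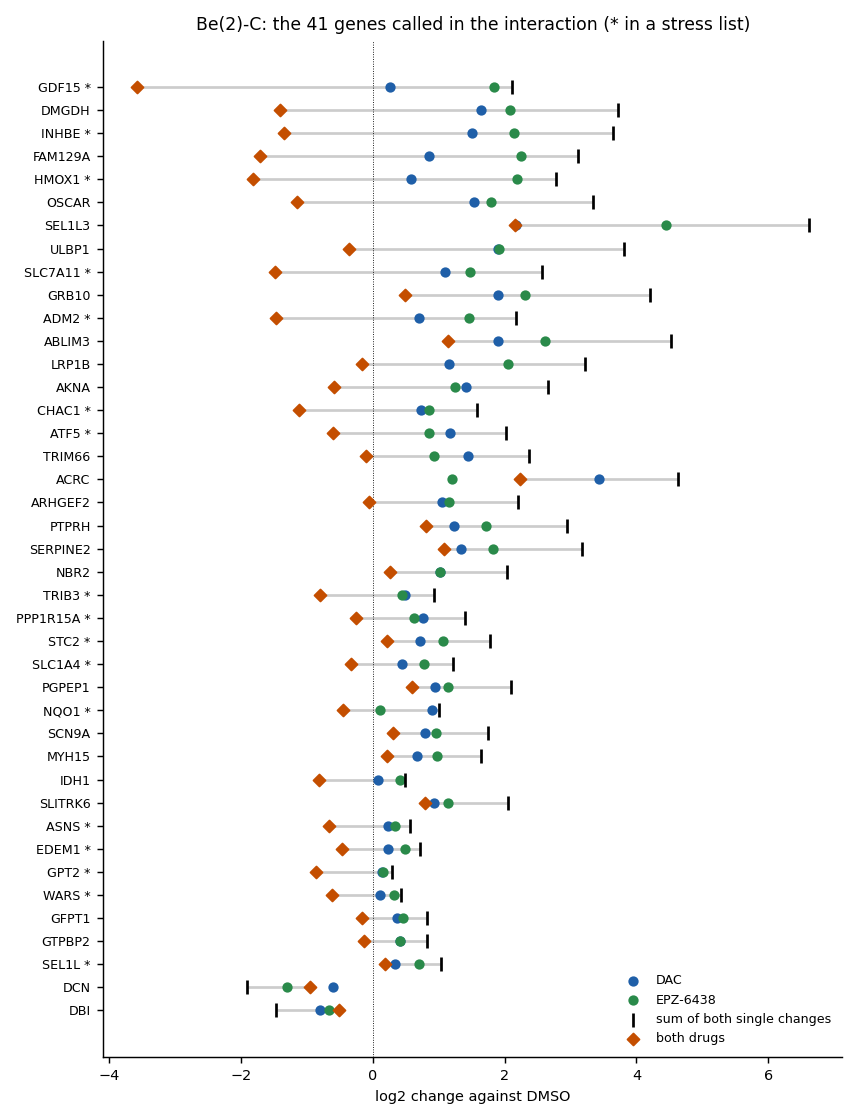
For each of the 41 called genes, circles give the log2 change against DMSO after DAC and after EPZ, the bar their sum and the diamond the change under both drugs; an asterisk marks the 17 genes of the stress lists. In GDF15, INHBE, HMOX1 and SLC7A11 the sum is above 2 and the diamond below -1, and in DBI and DCN the diamond lies to the right of the sum.

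The 7 stress lists, written with earlier results of these data known, held 121 distinct genes that were tested. Of these, 17 were called below the sum (14%) and 0 above (edgeR quasi-likelihood test), and at an unadjusted p under 0.05 there were 51 below and 1 above. Over all genes tested 0.244% were called below, and 4.1% lay below and 3.44% above at the unadjusted p. The median interaction of the 121 was -0.38. The 17 genes were 43.6% of the 39, where the 121 were 0.758% of all genes tested. The count of 17 was 6 with DMSO 1 or DAC 2 left out, 9 with DAC+EPZ 1 left out and 10 with DAC+EPZ 2 left out.

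The regulators of the ATF4 and CHOP response came first by role. Of 15 tested, 4 were called below the sum and 10 had an unadjusted p under 0.05 below it, with a median of -0.82. ATF5, a transcription factor related to ATF4, stood at 9.79 and 14 CPM after DMSO, 22.4 and 30.9 after DAC, 25.1 and 17.8 after EPZ, and 8.01 and 7.55 after both. The libraries with both drugs lay under the 6 others, and the interaction was -2.62 ± 0.31 (edgeR quasi-likelihood test, adjusted p = 0.000107). That is a level 6.17 times below the one that the summed log2 changes give. CHAC1 encodes an enzyme that degrades glutathione and is switched on by ATF4. It had 10.4 and 12.5 CPM after DMSO, 12 and 26.1 after DAC, 25.8 and 15.7 after EPZ, and 4.54 and 6.08 after both (interaction -2.70 ± 0.45, adjusted p = 0.0045).

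PPP1R15A, also known as GADD34, brings a phosphatase to the initiation factor and so ends the response. It had 23.7 and 30.1 CPM after DMSO, 31.7 and 59.7 after DAC, 48.9 and 34.3 after EPZ, and 22.3 and 22.9 after both, with an interaction of -1.64 ± 0.31. TRIB3, a pseudokinase that restrains ATF4 and CHOP, had 25.8 and 32.6 CPM after DMSO, 28.7 and 53.4 after DAC, 48.1 and 31.3 after EPZ, and 14.8 and 18.7 after both (interaction -1.74 ± 0.36). In both genes 1 of the libraries of each single drug stood close to the higher DMSO library and the other well above it. The call held in 5 of the 8 fits with 1 library left out for CHAC1, in 3 for PPP1R15A and in 2 for TRIB3. It ended without DMSO 1, DAC 2 or DAC+EPZ 1 for all 3 genes, and also without DAC+EPZ 2 or EPZ 1 for the last 2 and without DMSO 2 for TRIB3, at adjusted p of up to 0.09, 0.233 and 0.443.

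The 2 factors at the head of the response were not called. ATF4 mRNA lay between 502 and 643 CPM in all 8 libraries, with an interaction of 0.06 ± 0.17 (edgeR quasi-likelihood test, adjusted p = 0.962). ATF4 is controlled mainly at translation, so this level does not report its protein. DDIT3 had 19.6 and 18.6 CPM after DMSO, 17.9 and 33.4 after DAC, 27.1 and 25.4 after EPZ, and 14.5 and 14.8 after both. Both libraries with both drugs were the lowest of the 8, and the interaction of -1.26 ± 0.29 missed the threshold (adjusted p = 0.0813) but passed it in the DESeq2 Wald test (adjusted p = 0.0254), without DAC 1 (0.000601) and with no filter (0.000406). EIF4EBP1, a translation repressor, had the highest value of the list at 0.15 ± 0.22.

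The secreted factors made under ATF4 had the lowest median of the 38 lists, -3.63, and 4 of the 5 tested were called below the sum. INHBE, a subunit of activins, stood at 3.35 and 4.04 CPM after DMSO, 6.5 and 14.6 after DAC, 15.9 and 16.7 after EPZ, and 1.34 and 1.57 after both. That put the level under both drugs at less than the lower DMSO library. It was also 31.7 times below the level that the summed log2 changes give (interaction -4.99 ± 0.46, edgeR quasi-likelihood test, adjusted p = 4.63e-06). Without logarithms the summed changes gave a smaller expected level, 23.2 CPM, against a mean of 1.45 CPM under both drugs. GDF15, a circulating stress hormone that acts on appetite, had 2.72 and 5.60 CPM after DMSO, 2.63 and 7.50 after DAC, 17.7 and 12.1 after EPZ, and 0.267 and 0.419 after both, which were 7 counts over 2 libraries. The DAC libraries spanned the DMSO libraries, so most of the sum came from EPZ, and the interaction was -5.69 ± 0.72 (adjusted p = 0.000233).

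ADM2, a peptide of the calcitonin family, had 2.36 and 2.20 CPM after DMSO, 3.37 and 4.08 after DAC, 8.72 and 3.89 after EPZ, and 0.801 and 0.839 after both (interaction -3.63 ± 0.55). Its 2 libraries with both drugs together held 17 counts and lay under the 6 others. STC2, a secreted glycoprotein of calcium and phosphate balance, had 34.1 and 40.7 CPM after DMSO, 47.0 and 75.4 after DAC, 89.8 and 67.0 after EPZ, and 42.9 and 43.5 after both. Unlike the other 3 it did not lie under DMSO, its interaction was -1.57 ± 0.28 (edgeR quasi-likelihood test, adjusted p = 0.011), and the call ended without DMSO 1, DAC 2, DAC+EPZ 1, DAC+EPZ 2 or EPZ 1 (adjusted p of up to 0.179). VEGFA, the angiogenic factor, was the member not called, with an interaction of -0.68 ± 0.16 (adjusted p = 0.122), which passed in the DESeq2 Wald test (adjusted p = 0.0347).

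**Figure D3:**
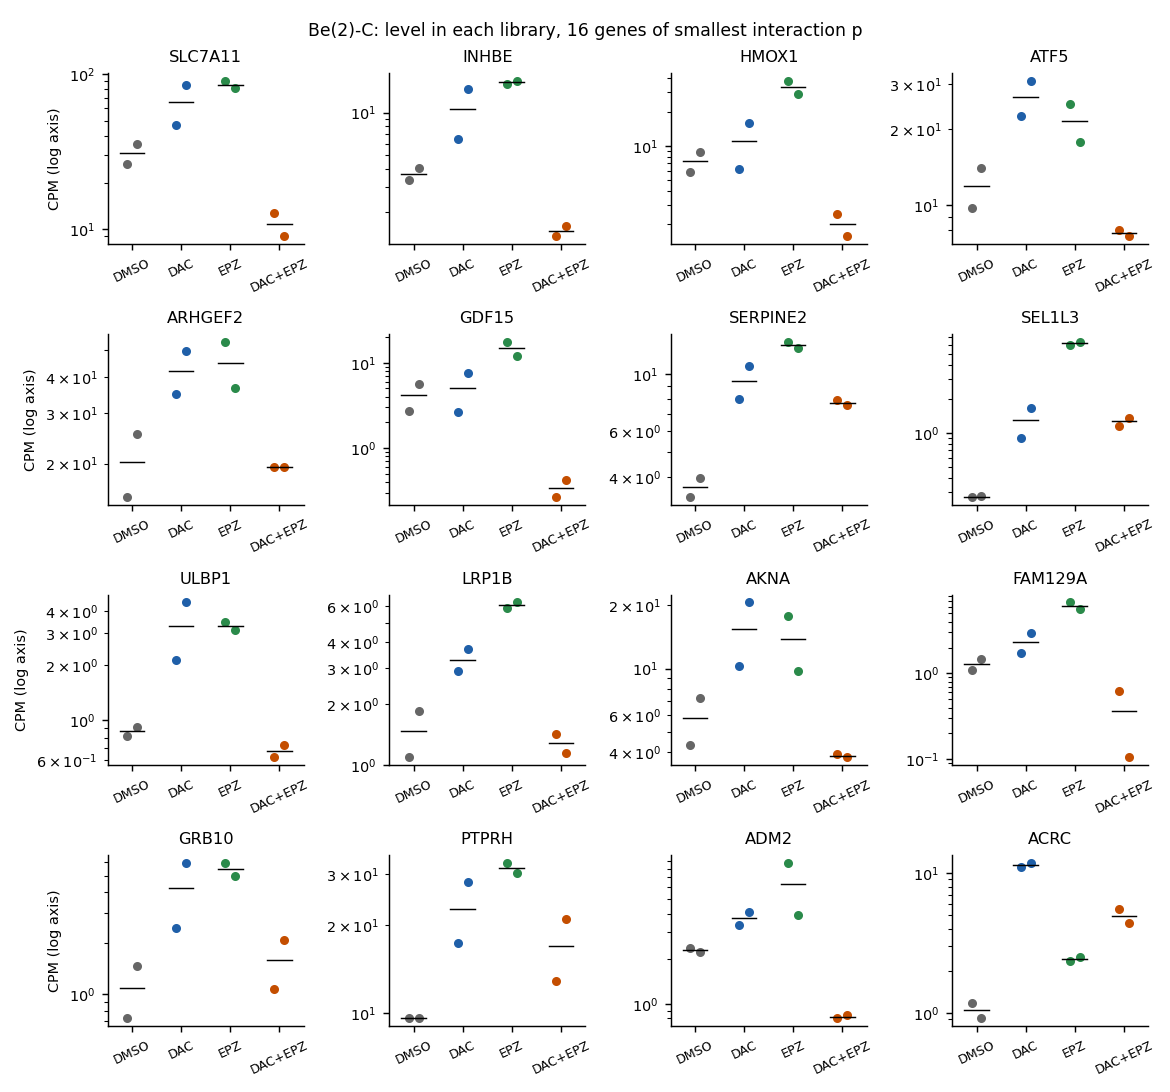
Level in CPM, on a log axis whose range differs between panels, in each of the 8 Be(2)-C libraries for the 16 genes of smallest interaction p; points are libraries and lines the mean of both. In 13 of the panels both libraries with both drugs lie under all 4 single-drug libraries, and ACRC, PTPRH and SEL1L3 are the exceptions.

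Among the amino acid carriers, 2 of 11 tested were called below the sum, 11 of 11 had a negative interaction, and the median was -0.52. SLC7A11, the cystine importer that supplies glutathione synthesis, stood at 26.2 and 35.4 CPM after DMSO, 46.8 and 85.2 after DAC, 90.2 and 80.7 after EPZ, and 12.7 and 9.02 after both. Each drug raised it alone (log2 1.10 ± 0.24 and 1.47 ± 0.24), and under both it fell by 1.49 ± 0.28 against DMSO (edgeR quasi-likelihood test, adjusted p = 0.00849, 0.000469 and 0.000442). The interaction was -4.06 ± 0.37 (edgeR quasi-likelihood test, adjusted p = 4.63e-06), a level 16.7 times below the one that the summed log2 changes give. SLC1A4, a carrier of alanine, serine and cysteine, had 12.2 and 13.2 CPM after DMSO, 15.3 and 19.5 after DAC, 25.6 and 17.8 after EPZ, and 9.17 and 11 after both (interaction -1.55 ± 0.26, adjusted p = 0.00424). Its call ended without DMSO 1, DAC 2 or DAC+EPZ 1, at adjusted p of up to 0.0678.

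Enzymes of amino acid and one-carbon metabolism supply building blocks under the same program. Of 14 tested, 2 were called below the sum, with a list median of -0.47 (-0.30 without DAC 2). ASNS, which makes asparagine, had 126 and 158 CPM after DMSO, 140 and 193 after DAC, 203 and 154 after EPZ, and 92.2 and 86.1 after both (interaction -1.23 ± 0.21, adjusted p = 0.00634). GPT2, the mitochondrial alanine transaminase, had 52.2 and 56.0 CPM after DMSO, 49.7 and 69.9 after DAC, 63.7 and 56.4 after EPZ, and 27.1 and 32.3 after both (interaction -1.16 ± 0.22). Neither gene was called after either drug alone, and both were called lower under both drugs than in DMSO, by -0.67 ± 0.15 and -0.87 ± 0.16 (edgeR quasi-likelihood test, adjusted p = 0.00254 and 0.000446). PYCR1, an enzyme of proline synthesis, had the highest value of the list at 0.20 ± 0.19. The calls of ASNS and GPT2 ended without DMSO 1 or DAC 2, that of ASNS also without DAC+EPZ 2 and that of GPT2 without DMSO 2, DAC+EPZ 1 or EPZ 1, at adjusted p of up to 0.119 and 0.268.

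Of 19 genes of tRNA charging, 1 was called below the sum and 7 had an unadjusted p under 0.05 below it (median -0.24, and -0.15 without DAC 2). It was WARS, which charges tryptophan tRNA, at 155 and 169 CPM after DMSO, 151 and 199 after DAC, 215 and 189 after EPZ, and 104 and 106 after both. The interaction was -1.05 ± 0.17 (edgeR quasi-likelihood test, adjusted p = 0.00424), and the call ended without DMSO 1 (adjusted p = 0.0846) or DAC 2 (0.0674). The highest value of the list was 0.20 ± 0.18 in DARS, which charges aspartate tRNA.

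The unfolded protein response of the endoplasmic reticulum adds chaperones and disposal of misfolded proteins. Of 25 of its genes tested, 2 were called below the sum, 8 had an unadjusted p under 0.05 below it and 1 above, with a median of -0.27 (-0.14 without EPZ 1). EDEM1 and SEL1L both serve the removal of misfolded proteins for degradation. EDEM1 had 18.4 and 19.6 CPM after DMSO, 22.4 and 22.2 after DAC, 29.6 and 23.6 after EPZ, and 14 and 13.5 after both (interaction -1.18 ± 0.24, adjusted p = 0.0347). SEL1L had 81.7 and 92.6 CPM after DMSO, 104 and 116 after DAC, 134 and 149 after EPZ, and 100 and 98.7 after both (interaction -0.84 ± 0.17, adjusted p = 0.0362). Of the 8 fits that left out 1 library, the call of EDEM1 was kept only in the one without EPZ 2 and that of SEL1L only in the one without EPZ 1, with adjusted p of up to 0.28 and 0.462 in the others. ERN1, the sensor kinase of the pathway, was at -1.49 ± 0.35 (adjusted p = 0.101), and the chaperone cofactor SDF2L1 was the member above the sum, at 0.83 ± 0.24 (adjusted p = 0.327).

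Of 33 genes of NRF2-driven oxidative defence that were tested, 3 were called below the sum, SLC7A11 among them, with a list median of -0.31 (-0.17 without DAC 2). HMOX1, heme oxygenase, had 5.8 and 8.91 CPM after DMSO, 6.17 and 16.1 after DAC, 37.9 and 29.2 after EPZ, and 2.49 and 1.57 after both. EPZ alone raised it by 2.19 ± 0.29, the DAC libraries overlapped those with DMSO, and with both drugs it was lower than in any other library (interaction -4.60 ± 0.48, adjusted p = 2.53e-05). NQO1, a quinone reductase, differed in that DAC was the drug that raised it: 29.0 and 31.2 CPM after DMSO, 44.2 and 68.7 after DAC, 34.9 and 30 after EPZ, and 24.2 and 19.6 after both. Its interaction was -1.47 ± 0.26 (edgeR quasi-likelihood test, adjusted p = 0.0097), and the call ended without DMSO 1, DAC 2 or DAC+EPZ 2 (adjusted p of up to 0.114). NFE2L2 itself had an interaction of -0.27 ± 0.21 (adjusted p = 0.804), and CBR1, a carbonyl reductase, the highest value of the list at 0.30 ± 0.19.

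Promoter sequences were examined because the called stress genes moved together and ATF4 and NRF2 bind known elements. RefSeq promoters of build GRCh38.p14, which is not the hg19 build of the counts, run from 250 bases before to 50 after the start of a gene, and 33 of the 41 called genes matched an entry. SLC7A11, INHBE, HMOX1, LRP1B, GPT2, OSCAR, DCN and PGPEP1 had none. The first 4 below are the called stress genes of smallest adjusted p with an entry; CHAC1 and ASNS were added after their sequences were seen, as the stress genes with an amino acid response core. Capitals mark the core of the amino acid response element, TGATGNAA, or of the antioxidant response element, TGACNNNGC, on either strand. The windows are chr19:49928656-49928955 (plus strand) for ATF5, chr19:18385908-18386207 (plus) for GDF15, chr22:50481293-50481592 (plus) for ADM2, chr14:100376278-100376577 (minus) for WARS, chr15:40953221-40953520 (plus) for CHAC1 and chr7:97872359-97872658 (minus) for ASNS, each written 5′ to 3′ along the gene.
ATF5: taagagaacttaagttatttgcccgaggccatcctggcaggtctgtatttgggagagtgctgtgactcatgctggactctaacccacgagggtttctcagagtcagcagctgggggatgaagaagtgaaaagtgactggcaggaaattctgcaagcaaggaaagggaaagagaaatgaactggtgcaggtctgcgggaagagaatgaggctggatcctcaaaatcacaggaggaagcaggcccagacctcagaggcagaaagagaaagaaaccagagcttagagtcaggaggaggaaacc
GDF15: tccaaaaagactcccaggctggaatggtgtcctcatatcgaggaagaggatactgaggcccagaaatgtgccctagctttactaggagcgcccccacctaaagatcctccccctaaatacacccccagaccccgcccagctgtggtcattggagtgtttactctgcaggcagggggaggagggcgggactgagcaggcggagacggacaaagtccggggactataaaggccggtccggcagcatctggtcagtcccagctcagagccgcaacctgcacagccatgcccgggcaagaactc
ADM2: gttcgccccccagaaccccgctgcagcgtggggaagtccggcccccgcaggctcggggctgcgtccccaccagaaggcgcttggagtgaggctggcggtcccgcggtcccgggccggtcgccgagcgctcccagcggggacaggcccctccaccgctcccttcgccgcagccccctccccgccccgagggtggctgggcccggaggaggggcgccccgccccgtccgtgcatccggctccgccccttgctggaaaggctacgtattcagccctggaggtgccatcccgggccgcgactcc
WARS: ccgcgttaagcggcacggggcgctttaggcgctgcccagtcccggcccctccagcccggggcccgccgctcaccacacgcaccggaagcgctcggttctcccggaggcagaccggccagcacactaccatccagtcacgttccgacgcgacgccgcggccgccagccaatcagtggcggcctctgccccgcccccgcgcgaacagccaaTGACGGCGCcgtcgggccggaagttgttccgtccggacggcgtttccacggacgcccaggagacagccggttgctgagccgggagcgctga
CHAC1: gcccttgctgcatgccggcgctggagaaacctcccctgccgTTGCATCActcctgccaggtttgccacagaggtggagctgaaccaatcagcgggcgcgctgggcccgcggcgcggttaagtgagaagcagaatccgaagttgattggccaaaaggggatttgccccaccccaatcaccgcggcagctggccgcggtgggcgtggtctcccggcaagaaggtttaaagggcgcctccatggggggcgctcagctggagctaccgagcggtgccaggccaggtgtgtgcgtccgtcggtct
ASNS: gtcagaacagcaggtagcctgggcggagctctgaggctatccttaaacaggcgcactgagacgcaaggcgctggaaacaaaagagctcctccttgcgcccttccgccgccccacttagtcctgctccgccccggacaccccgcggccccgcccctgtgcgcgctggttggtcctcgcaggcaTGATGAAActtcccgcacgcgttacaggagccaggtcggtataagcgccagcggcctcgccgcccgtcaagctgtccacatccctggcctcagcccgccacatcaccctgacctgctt

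The amino acid response core began 68 bases before the start of ASNS, and in CHAC1 it lay on the other strand, 209 bases before the start. WARS held an antioxidant core 41 bases before its start, and ATF5, GDF15 and ADM2 held neither core in the window. Among the 32 genes below the sum with an entry, 3 held the amino acid core (9.38%; CHAC1, ASNS and SLITRK6), against 1003 of 27305 promoters in the table (3.67%). The antioxidant core was in 7 of the 32 (21.9%) and in 3702 of all promoters (13.6%), and the E-box, CACGTG, in 3 of the 32 (9.38%) and in 7.43% of all promoters. Among the 13 stress genes with an entry, 2 held the amino acid core (15.4%), 5 the antioxidant core (38.5%) and 0 the E-box. Those with the antioxidant core were WARS, STC2, PPP1R15A, SEL1L and TRIB3, none of them on the NRF2 list. NQO1, the only called gene of the NRF2 list with an entry, held no antioxidant core. These are descriptions of letters in a short window with no test.

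Of the 39 genes below the sum, 21 belonged to none of the 38 lists, and the imprinted gene GRB10 was the only called member of its list. ULBP1, a stress ligand that natural killer cells recognise, had 0.816 and 0.918 CPM after DMSO, 2.14 and 4.45 after DAC, 3.45 and 3.15 after EPZ, and 0.623 and 0.734 after both (interaction -4.17 ± 0.54, adjusted p = 0.000288). FAM129A, known as NIBAN and induced in the stress response, had 1.09 and 1.47 CPM after DMSO, 1.73 and 2.96 after DAC, 6.72 and 5.55 after EPZ, and 0.623 and 0.105 after both, which were 8 counts (interaction -4.82 ± 0.69, adjusted p = 0.000892). In both genes the libraries with both drugs were the lowest of the 8. GRB10, an adaptor that restrains insulin signalling, had 0.725 and 1.47 CPM after DMSO, 2.47 and 5.93 after DAC, 5.90 and 5 after EPZ, and 1.07 and 2.10 after both (interaction -3.72 ± 0.54, edgeR quasi-likelihood test, adjusted p = 0.00109). Its libraries with both drugs overlapped those with DMSO.

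Of the 39 genes below the sum, 5 were called higher under both drugs than in DMSO, by less than the sum. Over all genes tested 13.2% were called higher in that comparison, so the 5 are described here and not read as a class. SERPINE2, an inhibitor of thrombin and other proteases, had 3.35 and 3.95 CPM after DMSO, 7.98 and 10.7 after DAC, 13.3 and 12.6 after EPZ, and 7.92 and 7.55 after both (interaction -2.09 ± 0.26, adjusted p = 0.000233). Its level under both drugs was thus just under that of DAC alone. SEL1L3 had 0.272 and 0.275 CPM after DMSO, which were 6 counts, 0.905 and 1.67 after DAC, 5.99 and 6.39 after EPZ, and 1.16 and 1.36 after both (interaction -4.46 ± 0.57). Here the rise under EPZ, by log2 4.45 ± 0.37, was not seen beside DAC, where both drugs and DAC alone differed by -0.02 (adjusted p = 0.994). PTPRH, a receptor tyrosine phosphatase, had 9.61 and 9.64 CPM after DMSO, 17.4 and 28.1 after DAC, 32.8 and 30.4 after EPZ, and 12.9 and 21.1 after both (interaction -2.14 ± 0.32, edgeR quasi-likelihood test, adjusted p = 0.00123).

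ACRC was the called gene with the highest DAC response. It had 1.18 and 0.918 CPM after DMSO, 11 and 11.8 after DAC, 2.36 and 2.5 after EPZ, and 5.52 and 4.40 after both (interaction -2.39 ± 0.36, adjusted p = 0.0016). The libraries with both drugs lay between those of the single drugs, and with EPZ beside DAC the level fell by 1.19 on the log2 scale against DAC alone (edgeR quasi-likelihood test, adjusted p = 0.000548). SLITRK6, a neuronal transmembrane protein, was the fifth gene called higher under both drugs than in DMSO, at 29.6 and 23.1 CPM against 14.9 and 15.6. Its interaction was -1.26 ± 0.24 (adjusted p = 0.0209) and ended without DMSO 1, DMSO 2, DAC 2, DAC+EPZ 2 or EPZ 1 (adjusted p of up to 0.238).

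A further 3 genes outside the lists were among the 16 of smallest p. ARHGEF2, a microtubule-bound signalling protein, had 15.3 and 25.3 CPM after DMSO, 34.9 and 49.6 after DAC, 53.3 and 36.8 after EPZ, and 19.5 and 19.4 after both, between its DMSO libraries (interaction -2.26 ± 0.28). LRP1B, a giant receptor of the LDL receptor family, had 1.09 and 1.84 CPM after DMSO, 2.88 and 3.71 after DAC, 5.90 and 6.29 after EPZ, and 1.42 and 1.15 after both (interaction -3.38 ± 0.45). AKNA, an AT-hook protein of the nucleus and centrosome, had 4.35 and 7.25 CPM after DMSO, 10.3 and 20.7 after DAC, 17.9 and 9.72 after EPZ, and 3.92 and 3.78 after both (interaction -3.25 ± 0.45). For all 3 the adjusted p was under 0.001 in the edgeR quasi-likelihood test (0.000233, 0.000335 and 0.00069), and none was called under both drugs against DMSO.

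The other 11 genes outside the lists each lost their call when at least 1 library was left out. IDH1, the cytosolic isocitrate dehydrogenase that makes NADPH, had an interaction of -1.30 ± 0.21 and fell under both drugs to 80.6 and 64.9 CPM from 113 and 144 (log2 -0.82 ± 0.15). GFPT1, which opens the hexosamine pathway, was at -1.0 ± 0.21, and GTPBP2, a GTPase of ribosome rescue, at -0.95 ± 0.20. SCN9A, a voltage-gated sodium channel, was at -1.45 ± 0.24, and MYH15, a myosin heavy chain, at -1.43 ± 0.25. TRIM66 was at -2.48 ± 0.44, NBR2, a non-coding RNA beside BRCA1 whose reads cannot be told from an overlapping gene's without the strand setting, at -1.78 ± 0.31, and PGPEP1, a peptidase, at -1.50 ± 0.32. SCN9A lost its call only without DMSO 1 (adjusted p = 0.0846). The other 7 lost theirs without DMSO 1 and at least 2 more libraries, DAC 2 among them except for PGPEP1, at adjusted p of up to 0.521 (GTPBP2).

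OSCAR, DMGDH and ABLIM3 rested on few counts. The 2 libraries with both drugs held 5 counts for OSCAR, 2 for DMGDH and 17 for ABLIM3, and those with DMSO 12, 6 and 8. The fitted interactions of -4.48 ± 0.87, -5.13 ± 1.03 and -3.38 ± 0.71 depend at such counts on the prior count, and the calls of DMGDH and ABLIM3 ended without any 1 of the 8 libraries, that of OSCAR without any but EPZ 2 (adjusted p of up to 0.27, 0.366 and 0.285). The last genes inside the threshold were PGPEP1 (adjusted p = 0.0459) and ABLIM3 (0.0468), and the first outside were TNFRSF9 at -4.22 and TNFRSF10B at -1.54 (0.0556 each) and MSC at -2.77 (0.0567). TNFRSF10B, the death receptor DR5 and a known target of CHOP, passed with no filter (4.2e-05), in the DESeq2 Wald test (0.000411), without DAC 1 (0.000601) and without EPZ 2 (0.0281).

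The 2 genes above the sum both fell under each drug alone, and under both drugs by less than the sum. DBI, the acyl-CoA binding protein, had 40.1 and 36.1 CPM after DMSO, 20.9 and 22.8 after DAC, 24.9 and 22.9 after EPZ, and 30 and 23.2 after both (interaction 0.96 ± 0.20, adjusted p = 0.0347). In DBI the libraries with both drugs lay above both DAC libraries, the lower one only just, and overlapped the EPZ libraries. DCN, the matrix proteoglycan decorin, had 63.4 and 59.0 CPM after DMSO, 42.7 and 37.9 after DAC, 25.1 and 24.5 after EPZ, and 35.3 and 28.1 after both (interaction 0.96 ± 0.20, edgeR quasi-likelihood test, adjusted p = 0.0439). Its libraries with both drugs lay between those of the single drugs. Both calls ended when Be(2)-C was fitted alone, and the number of genes above the sum was 0 without DMSO 1, DMSO 2, DAC 1, DAC 2 or DAC+EPZ 1, 1 without EPZ 2 and 20 without EPZ 1. Histone genes were among them, and the median of the list of replication-dependent histone genes was 0.60 without EPZ 1 and 0.50 with all libraries. EPZ 2, the EPZ library left there, stood apart from EPZ 1 in RPS15, a ribosomal protein, with 235 against 680 CPM.

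Among the 29 lists without a called member, the 3 cell cycle lists had medians above 0, which no test compares with other genes. Of 65 replication-dependent histone genes tested, 0 were called (edgeR quasi-likelihood test), 30 had an unadjusted p under 0.05 above the sum and 0 below, and 62 had a positive value, with a median of 0.50. Their median log2 change was -0.96 after DAC, -1.03 after EPZ and -1.45 after both. HIST1H2BE fell from 328 and 263 CPM after DMSO to 121 and 145 after DAC, 132 and 117 after EPZ, and 82.9 and 78.2 after both. It was called lower under both drugs than under DAC alone (log2 -0.72, edgeR quasi-likelihood test, adjusted p = 0.00209) and than under EPZ alone (-0.62, 0.00771). The interaction of 0.53 ± 0.19 did not pass the test (adjusted p = 0.481). HIST1H2BI was at 0.41 ± 0.17. Histone copies are near-identical, and reads may be split between them.

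All 39 mitosis genes tested had a positive interaction, with a median of 0.28, 11 at an unadjusted p under 0.05 and 0 called in the edgeR quasi-likelihood test. The median log2 change of the list was -0.41 after DAC, -0.705 after EPZ and -0.85 after both, so it was lowest under both drugs. CDC25C, the phosphatase that starts mitosis, had 27.9 and 28.3 CPM after DMSO, 22.7 and 23.3 after DAC, 17.2 and 17.3 after EPZ, and 23.2 and 21.7 after both. In CDC25C, which had the highest interaction of the list, the level under both drugs was thus that of DAC alone (0.67 ± 0.19, edgeR quasi-likelihood test, adjusted p = 0.304). Of 41 DNA replication genes, 34 were positive and 6 had an unadjusted p under 0.05 above the sum, with a median of 0.20. Here the median log2 change was -0.47 after DAC, -0.80 after EPZ and -1.045 after both. PCNA, the sliding clamp, had 319 and 306 CPM after DMSO, 180 and 209 after DAC, 150 and 171 after EPZ, and 126 and 116 after both (interaction 0.28 ± 0.16). GINS2, a part of the replicative helicase, was at 0.52 ± 0.17. The medians of these 3 lists kept their sign in all 13 alternative fits.

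Lists of housekeeping metabolism lay slightly above the sum, again with 0 members called. The median was 0.24 for 82 nuclear respiratory chain genes (12 at an unadjusted p under 0.05 above, 0 below), 0.21 for 82 cytosolic ribosomal proteins (5 above, 0 below) and 0.20 for 25 genes of cholesterol synthesis (7 above, 0 below). Over all genes tested 3.44% lay above and 4.1% below at that unadjusted p, and the ribosomal count is close to the share above. NDUFA7, a subunit of complex I, was at 0.71 ± 0.24, and MVK, mevalonate kinase, at 0.69 ± 0.26. Their single-drug medians were below 0: -0.28 after DAC and -0.25 after EPZ for the respiratory chain, and -0.47 and -0.26 for cholesterol synthesis. The ribosomal median was 0.11 with DAC+EPZ 1 left out, 0.12 with DAC 1, 0.33 with DAC+EPZ 2 and 0.34 with DAC 2 left out, and that of cholesterol synthesis 0.33 without EPZ 2.

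**Figure D4:**
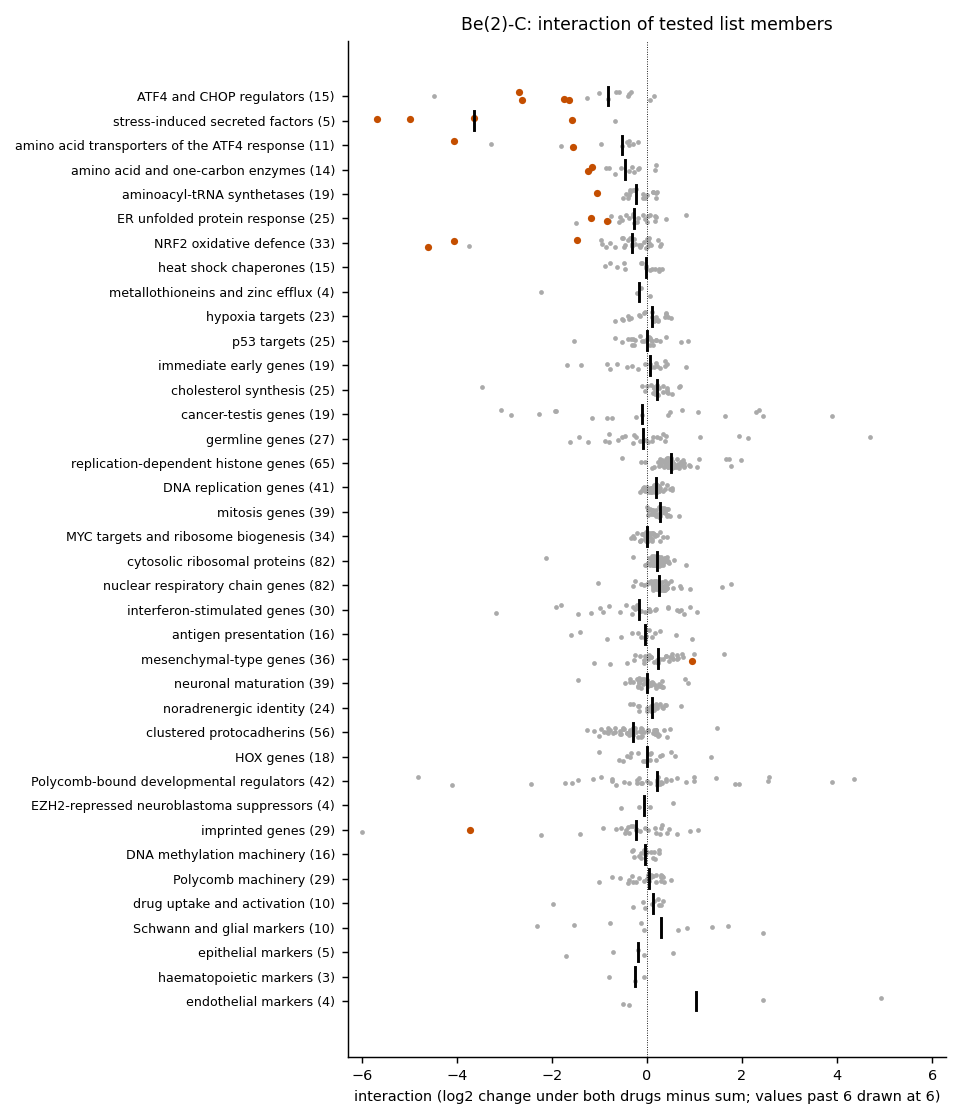
Interaction of every tested member of the 38 lists in Be(2)-C; grey points are members not called, orange points called members, bars list medians and the number of members stands beside the name. The stress lists at the top hold 17 of the called genes and have medians left of 0, and the histone and mitosis lists have medians right of it and no called member.

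The lists of cancer-testis and germline genes held no called gene. ACRC, whose RefSeq symbol is GCNA, is on neither list and was called below the sum, as given above. Of 19 cancer-testis genes tested, silent outside germ cells in most tissues, 0 were called and the median log2 change was 5.91 after DAC, 0.00 after EPZ and 5.71 after both. Their mean log2 of CPM plus 1 was only 0.269 and 0.303 after DMSO and 0.268 and 0.274 after EPZ. At such levels these changes depend on the prior count, and the lack of a call does not show that the sum held. The median interaction was -0.097, and ran from -0.47 without DMSO 2 to 0.46 without EPZ 2. MAGEA12 had 3.54 and 3.43 CPM after DAC, 5.52 and 4.93 after both, and 0 counts in both EPZ libraries, so no interaction is given for it. Of 27 germline genes 0 were called and 1 had an unadjusted p under 0.05, below the sum. TDRD9, of the piRNA pathway, had 0.453 and 0.367 CPM after DMSO, 7.24 and 5.84 after DAC, 0.726 and 0.925 after EPZ, and 3.29 and 5.24 after both. Its libraries with both drugs lay under those with DAC, at an interaction of -1.62 ± 0.63 (edgeR quasi-likelihood test, adjusted p = 0.567).

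Among 29 imprinted genes, expressed from 1 parental copy, only GRB10 was called, and the median was -0.24 (-0.13 without DAC 1). H19, a non-coding RNA, rose from 2.18 and 1.47 CPM after DMSO to 118 and 122 after DAC, stood at 1.73 and 1.85 after EPZ, and at 82.3 and 99.6 after both. The interaction was -0.37 ± 0.37, within its error. MKRN3 was at -0.93 ± 0.58. Of 56 clustered protocadherins, which share exons and near-identical reads, 0 were called, 40 lay below the sum and 5 had an unadjusted p under 0.05, with a median of -0.30 (-0.11 without EPZ 1, -0.13 without DMSO 1 and -0.16 without DAC 1). PCDHA13 was at -1.27 ± 0.45 (edgeR quasi-likelihood test, adjusted p = 0.481).

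Genes of the mesenchymal state, which some neuroblastoma cells take on, held members with a larger rise under both drugs than the sum, none of which was called. Of 36 tested, only DCN was called, and it fell under both drugs, by less than the sum. At an unadjusted p under 0.05, 7 lay above the sum and 2 below, and the median was 0.23 (0.15 without DAC 1). FN1, fibronectin, had 10.5 and 9.82 CPM after DMSO, 24.8 and 21.3 after DAC, 27.8 and 24.7 after EPZ, and 84.4 and 101 after both. FN1 and the next gene, SPARC, were picked as the 2 members of smallest p between both drugs and DMSO. Their strong change under both drugs is thus part of the choice. The interaction of FN1 was 0.64 ± 0.22 (edgeR quasi-likelihood test, adjusted p = 0.481). SPARC, a matrix protein, had 17.3 and 16.6 CPM after DMSO, 32.5 and 27.4 after DAC, 23.3 and 21.4 after EPZ, and 57.5 and 64.9 after both (interaction 0.63 ± 0.17, adjusted p = 0.28). The rise of FN1 and SPARC was larger than the sum in value, but the difference did not pass the test. ACTA2, smooth muscle actin, was the lowest at -1.12 ± 0.35.

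Several other classes also had 0 called genes. The median was -0.17 for 30 interferon-stimulated genes (0.10 without DAC 2), -0.03 for 16 genes of antigen presentation, -0.01 for 39 genes of neuronal maturation, 0.11 for 24 noradrenergic identity genes (-0.04 without EPZ 2), -0.0044 for 25 p53 targets and 0.10 for 23 hypoxia targets (0.036 without DAC+EPZ 1, 0.16 without DAC+EPZ 2). For 42 developmental regulators bound by Polycomb it was 0.21, with 1 gene above and 2 below the sum at an unadjusted p under 0.05, and it ran from 0.026 without DAC+EPZ 2 to 0.44 without EPZ 1. BST2, an antiviral surface protein, had 1.63 and 0.918 CPM after DMSO, 5.35 and 4.26 after DAC, 1.09 and 1.20 after EPZ, and 7.03 and 7.13 after both (interaction 0.71 ± 0.57). HLA-E, a class I molecule, rose with each drug to 8.01 and 7.34 CPM under both from 0.997 and 2.02 after DMSO (interaction -0.84 ± 0.42). Neither passed the test (edgeR quasi-likelihood test, adjusted p = 0.816 and 0.678). CLU and CASZ1, described as EZH2-repressed suppressors in neuroblastoma, were at 0.54 ± 0.21 and -0.55 ± 0.38, with adjusted p of 0.557 and 0.776.

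The same contrast in IMR5-75 gave other genes. There 4 genes were called, 2 above the sum and 2 below (0.0125% of genes each): FOS at -4.08, ADCYAP1 at -1.64, NEFM at 1.29 and RGS4 at 1.56. Of the 39 Be(2)-C genes below the sum 0 were called in IMR5-75 (edgeR quasi-likelihood test), where 2 had an unadjusted p under 0.05 below the sum (4.3% of all genes) and 1 above it (2.64%). In IMR5-75 their median was -0.04, and 24 of the 39 were under 0. SLC7A11, for one, had 14.2 and 9.17 CPM after DMSO, 4.25 and 7.64 after DAC, 11 and 13.3 after EPZ, and 5.72 and 4.60 after both, so that both drugs gave the level of DAC alone.

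The test of the difference between the lines called 16 genes, 14 with a lower interaction in Be(2)-C (0.0877%) and 2 with a higher one (0.0125%). At an unadjusted p under 0.05 there were 419 lower (2.62%) and 556 higher (3.48%). Of the 39 genes below the sum, 13 were among them: INHBE, HMOX1, SERPINE2, ULBP1, SLC7A11, GRB10, ARHGEF2, SEL1L3, ATF5, LRP1B, WARS, AKNA and NBR2. For the other 26 a difference between lines was not shown. INHBE differed by -5.48 ± 0.57 (edgeR quasi-likelihood test, adjusted p = 6.69e-05). In IMR5-75 it stood at 25.3 and 36.7 CPM after DMSO, 17.8 and 17.5 after DAC, 21.5 and 19.9 after EPZ, and 15.1 and 18.3 after both, so that all 6 drug libraries lay under both DMSO libraries. GDF15 was not called different, although its value was large and imprecise at -6.49 ± 1.39 (edgeR quasi-likelihood test, adjusted p = 0.11). In IMR5-75 it had 0.516 and 0.336 CPM after DMSO, 12 and 8.11 after DAC, 0.394 and 0.236 after EPZ, and 11.4 and 14.5 after both. DAC was thus the drug that raised GDF15 there.

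**Figure D5:**
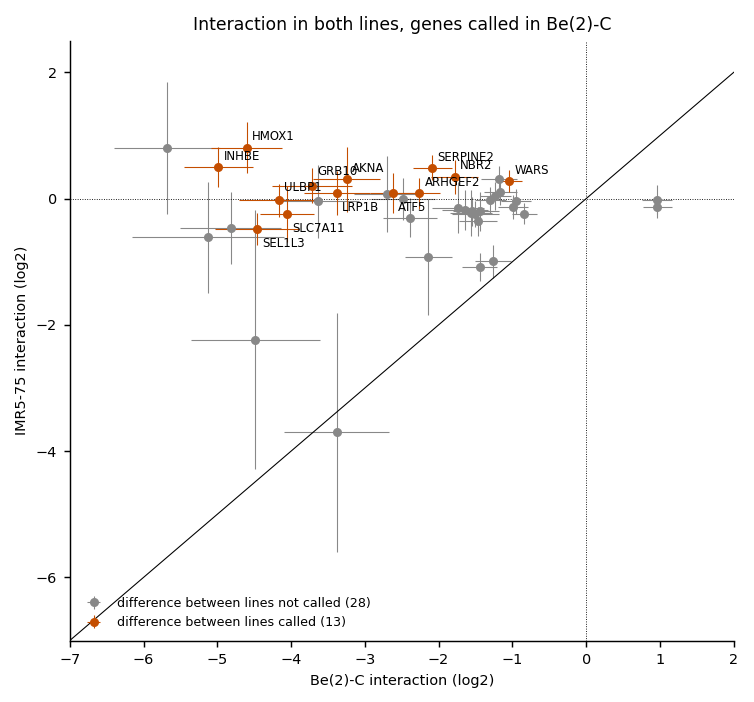
Interaction in Be(2)-C (x axis) and IMR5-75 (y axis), both in log2 with bars of 1 SE, for the 41 genes called in Be(2)-C; the diagonal marks equal values. The 13 genes with a called difference between lines lie at -1 or lower in Be(2)-C and between -0.48 and 0.81 in IMR5-75.

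The gene classes above the sum also differed in value between lines. The mitosis list had a median of -0.44 in IMR5-75, where 24 of its 39 genes had an unadjusted p under 0.05 below the sum and 0 above, and the histone list one of 0.01. The medians of the ATF4 and CHOP regulators and of NRF2 defence were 0.09 and 0.12 there. No test of a list between lines was made.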

How the data were processed

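RNA was measured in 16 libraries, 2 for each of 4 treatments of Be(2)-C and IMR5-75 cells. Per the labels' protocols, total RNA was depleted of ribosomal RNA and sequenced from a strand-marking kit as single-end reads. The deposited values are raw read counts per gene, with no normalization by the authors. Per the submitters' processing notes, the tools were TopHat2 2.0.5, HTSeq 0.5.3p9 and DESeq2, with build hg19; which annotation and strand setting the counting used is not stated there, so overlapping genes are uncertain.

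Genes were filtered with filterByExpr, scaled by TMM and fitted in 8 groups with the edgeR 4.0.16 quasi-likelihood test (R 4.3.3), which left 8 residual degrees of freedom. Genes with an adjusted p under 0.05 (Benjamini-Hochberg, over the 15967 tested) are termed called. CPM values use the TMM library sizes. Each SE was worked back from the test, as the absolute log2 value divided by the square root of its F statistic, and is approximate. The calculation was tested on simulated data. The members and lists were chosen with earlier results of these data known. Genes were named from a set that held every gene called in Be(2)-C, for each list the members with the highest and lowest interaction at a mean log2 CPM of at least 1, 2 examples for each of 6 uncalled lists by smallest p under both drugs, and DNMT1, EZH2, MYCN, ATF4, DDIT3 and NFE2L2 (not all of this set is named). The cAMP response element was planned as a promoter motif and not searched. Alternatives were DESeq2 size factors, no filter, the DESeq2 1.42.0 Wald test, a replicate block, Be(2)-C fitted alone and leaving out each library.

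The 16 libraries held 9539557 to 14032155 counts, the common biological variation was 9.88%, and replicates correlated at 0.989 to 0.992 across genes. No 2 libraries held identical values.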

Additional observations from a re-analysis of the deposited data

Results flagged for a closer look

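The interaction differed between the lines in 16 genes by the test of that difference (edgeR quasi-likelihood test, all 16 libraries), given here as the log2 interaction in Be(2)-C minus that in IMR5-75 with its SE. Stress genes with a lower value in Be(2)-C were INHBE at -5.48 ± 0.57, HMOX1 at -5.41 ± 0.63, SLC7A11 at -3.82 ± 0.57, ATF5 at -2.71 ± 0.44 and WARS at -1.33 ± 0.25. Of the genes outside the stress lists, ULBP1 was at -4.14 ± 0.61, SEL1L3 at -3.98 ± 0.63, GRB10 at -3.92 ± 0.61, AKNA at -3.55 ± 0.69, LRP1B at -3.47 ± 0.57, SERPINE2 at -2.57 ± 0.33, ARHGEF2 at -2.35 ± 0.37 and NBR2 at -2.13 ± 0.41. In the last 3 genes, FOS at 4.46 ± 0.60, ADCYAP1 at 1.73 ± 0.31 and NEFM at -1.45 ± 0.26, the interaction was called in IMR5-75 and not in Be(2)-C. INHBE, HMOX1, SLC7A11, ATF5, ULBP1, GRB10, LRP1B, SERPINE2, ARHGEF2 and FOS kept the call in all 20 alternative fits, and SEL1L3 in 19. ADCYAP1 kept it in 11, NEFM in 10, WARS in 8, and AKNA and NBR2 in 7, with adjusted p of up to 0.147, 0.107, 0.178, 0.161 and 0.247.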

How the results depend on the processing

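All 41 called genes kept their sign in the 13 alternative fits. The 39 genes below the sum became 81 with no filter on low counts, where 22268 genes were tested and all 41 calls were kept, and 16 to 50 without 1 library (16 without DMSO 1, 18 without DAC 2, 24 without DAC+EPZ 1 or 2). The 2 genes above became 28 with no filter, 0 with a replicate block, 0 with Be(2)-C fitted alone, and 0 to 20 without 1 library. The 17 stress genes became 28 with no filter and 6 to 21 without 1 library. The 4 genes called in IMR5-75 became 84 with no filter and 1 to 10 without 1 library (10 without DMSO 1 and 1 without EPZ 1 of that line). The 16 differences between lines became 82 with no filter, 32 in the DESeq2 Wald test and 10 to 46 without 1 library (10 without DAC 2, 25 without DAC 1 and 46 without EPZ 2 of Be(2)-C). The cause of these changes was not tested, beyond the larger number of genes tested without the filter.

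Same-numbered libraries did not deviate together over all genes tested: between Be(2)-C groups the correlation of their deviations ran from -0.173 to 0.0156. Whether they share a culture or batch is not stated in the labels and was not tested. The replicate block kept 29 of the 41 calls, all below the sum, 14 of the 17 stress genes and 11 of the 16 differences between lines. It ended the calls of SLITRK6, OSCAR, DMGDH, DBI, EDEM1, SEL1L, TRIB3, GFPT1, DCN, GTPBP2, PGPEP1 and ABLIM3.

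Uncalled values that changed sign without 1 library, given as lowest and highest, were those of ATF4 (-0.073 without DAC 1, 0.24 without DAC 2; also -0.012 without EPZ 2), DAZL (-2.96 and 1.93 without DMSO 2 and EPZ 2; also 0.36 without DMSO 1), DNMT1 (-0.095 and 0.31 without EPZ 2 and EPZ 1), EIF4EBP1 (-0.077 and 0.44 without EPZ 2 and EPZ 1; also -0.0059 without DAC 1), PAGE5 (-2.79 and 0.53 without EPZ 1 and EPZ 2), TDRD12 (-0.48 and 2.84 without EPZ 1 and EPZ 2; also -0.13 without DMSO 1) and UHRF1 (-0.16 and 0.028 without DAC+EPZ 2 and DAC+EPZ 1; also 0.018 without DAC 1). The spread of 2 libraries a group limits what can be called, and genes of few counts most.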
